A study of Mus musculus with 8 samples.

Results

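Gap junction connexins were examined in mouse cochlea as 6 genes, Gjb2, Gjb6, Gja1, Gjb1, Gjc1 and Gjc3, which were picked by symbol and not by their values. All 6 were found among the 21895 genes of the deposited table. The WT group was miR-29a+/+ and the KO group was miR-29a-/-, both on the C57BL/6 background and bred from heterozygous parents, and each group had 4 libraries, here WT1 to WT4 and KO1 to KO4. Both sexes entered the study's experiments. The series text gives an age of 21 days and the methods give 2 months, and no library record settles which. The sources do not say how many animals went into a library. If the libraries of a group are not separate animals, the p-values below measure only the spread between libraries. The deleted miR-29a itself was not analysed here, so the genotype of each library was not checked against it.

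Connexins are membrane proteins that assemble in sixes into a hemichannel, and hemichannels of adjoining cells dock to form a gap junction through which ions and small metabolites pass. In the cochlea, supporting cells of the sensory epithelium and the fibrocytes and basal cells of the lateral wall are joined by such junctions, chiefly of the Gjb2 product Cx26 and the Gjb6 product Cx30, and mutations in these genes cause deafness. Gja1 encodes Cx43, the widespread connexin of bone cells, fibroblasts, astrocytes and heart. The product of Gjb1, Cx32, links the myelin layers of Schwann cells and occurs in oligodendrocytes and hepatocytes. Gjc3 encodes Cx29, a connexin of myelinating glia, and Gjc1 encodes Cx45, known from vascular smooth muscle, cardiac conduction tissue and some neurons.

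None of the 6 genes differed between KO and WT beyond the spread between libraries. Expression was given as FPKM, fragments scaled to the length of the transcript and to the mapped fragments of the library. It was tested on log2(FPKM + 0.1) with limma over 14990 genes, those whose mean over the 8 libraries reached 0.5 FPKM. All 6 genes passed that filter. At the study's threshold, an unadjusted p-value under 0.05, limma called 5.12% of the tested genes (767), with 4.61% higher (691) and 0.507% lower (76) in KO, and 0 of the 6 connexins. With Benjamini-Hochberg adjustment over all tested genes, 0% were called. The study applied the unadjusted threshold to a test on read counts, with fewer samples per group. Its own called genes were therefore not compared with these. The KO minus WT differences of the 6 connexins ran from -0.13 to 0.23 on the log2 scale, with a median of 0.06, and the median over all tested genes was 0.10. These medians turned with the libraries used. Without WT1, the connexin median was -0.25 with 1 of 6 above 0, against -0.02 for all tested genes, and without WT1 and WT3 it was -0.09 with 0 of 6 above 0, against -0.03.

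The 8 libraries were uneven. The total FPKM was between 249221 and 288695, and no fragment counts were given, so the depth behind a value is unknown. In WT1, 1 gene, Gm8797, held 7.09% of the total, whereas the top gene of the other libraries held 1.72% to 3.26%. The 10 highest genes held 17.6% in WT1 and 8.5% to 10.9% in the others. The median FPKM of tested genes was 6.11 in WT1 and 7.43 to 8.53 in the others. The part of this in the low WT1 values was not tested. Pearson's correlation across the tested genes, which are not replicates, was as low as 0.725 between WT1 and WT3. WT1 had the lowest value of the 8 libraries in 52.1% of tested genes, and WT3 had the highest in 19%. WT values had a larger log2 SD than KO values in 77.7% of tested genes. Each connexin is therefore given below with WT1 and without it, and without WT1 and WT3 together. Without WT1, limma called 19.5% of 15019 tested genes at an unadjusted p-value under 0.05 (12.1% higher and 7.4% lower in KO), and 0 of the 6 connexins. Without both WT1 and WT3, 16.1% of 15055 genes were called, again with 0 of the 6. After adjustment, 0% of all tested genes were called in either case.

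The labelled tissue was checked against its markers. Coch, which encodes the cochlear matrix protein cochlin, was between 1230 and 1930 FPKM in all libraries, and all 10 listed genes of the sensory and supporting epithelium had a mean of at least 0.5 FPKM. Bone marrow and bone were also present. The summed FPKM of 6 marrow genes ran from 325 in WT3 to 8340 in WT1, and from 3670 to 9820 in KO. Marker genes of skeletal muscle summed to between 0.195 and 4.59 FPKM in WT and to 229 in KO3.

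Ordered by mean FPKM over the 8 libraries, which is a level per length of transcript, the connexins were Gjb2 (155), Gjb6 (113), Gja1 (28.9), Gjc3 (17.4), Gjb1 (8.39) and Gjc1 (2.81). Gjb2 ranked 124 among the 21895 genes and Gjb6 ranked 211, whereas Gja1, Gjc3, Gjb1 and Gjc1 ranked 1656, 3540, 7310 and 11981. The ranges of Gjb2 and Gjb6 over the libraries overlapped, but Gjb2 was the higher of the pair in 8 of 8 libraries. The ranges of Gjb6 and Gja1 did not overlap, the lowest Gjb6 value being 79.9 FPKM and the highest Gja1 value 35.8 FPKM. Gja1 exceeded Gjc3 in 7 of 8 libraries, WT3 being the exception, so that these neighbours were not apart in every library. Gjc3 was above Gjb1, and Gjb1 above Gjc1, in 8 of 8 libraries, although their ranges over the libraries overlapped.

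**Figure D1:**
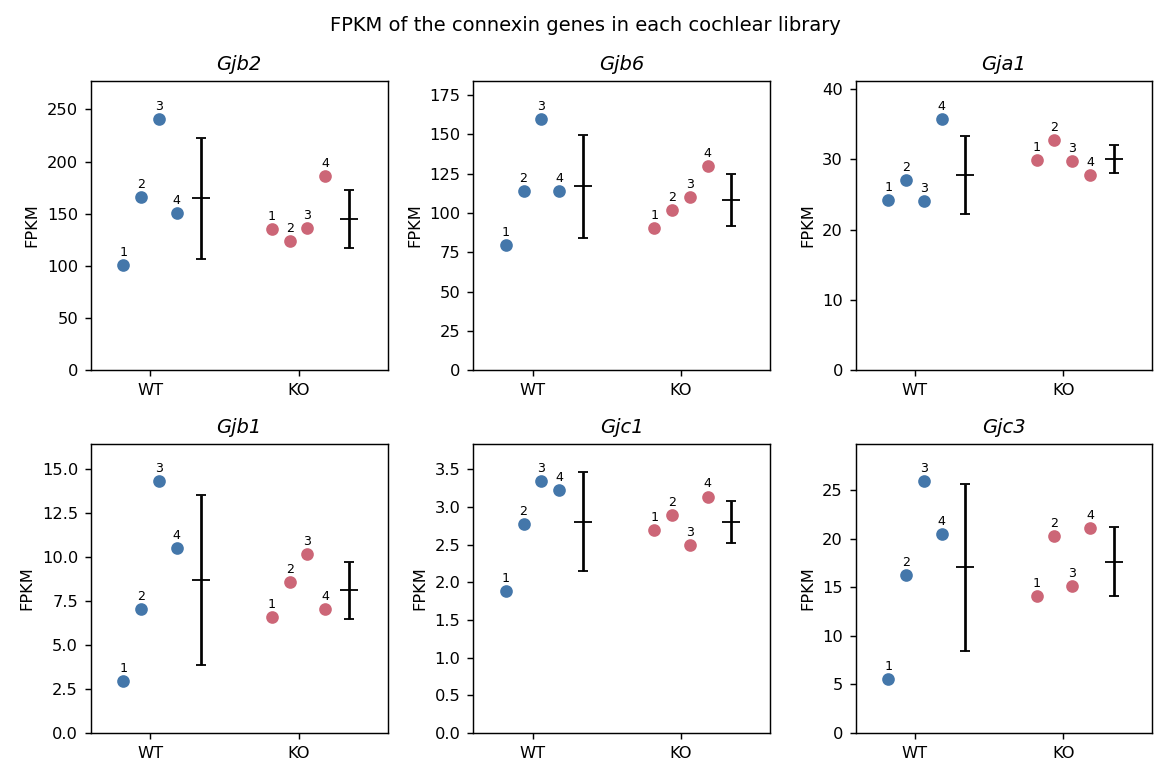
FPKM of each connexin gene (vertical axes, linear from 0) in the 4 WT (blue) and 4 KO (red) libraries, numbered by replicate, with the mean and SD of each group as a black bar. WT1 is the lowest library and WT3 the highest for every gene except Gja1, and the KO values lie inside the range of the WT values for all 6 genes.

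Gjb2 (ENSMUSG00000046352) lies on the minus strand of chromosome 14, from 57098600 to 57104702 of GRCm38, and Gjb6 (ENSMUSG00000040055) lies on the same strand from 57123303 to 57133611, with 18600 bases between the genes. Both are shown with the promoter sequence of RefSeq (GRCm38.p6), which covers 250 bases before the start site and 50 after it, because these neighbours had the closest levels and, as given below, moved together over the libraries. Capitals mark the GC box GGGCGG, searched on both strands.

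Gjb2 promoter, minus strand, chr14:57104653-57104952: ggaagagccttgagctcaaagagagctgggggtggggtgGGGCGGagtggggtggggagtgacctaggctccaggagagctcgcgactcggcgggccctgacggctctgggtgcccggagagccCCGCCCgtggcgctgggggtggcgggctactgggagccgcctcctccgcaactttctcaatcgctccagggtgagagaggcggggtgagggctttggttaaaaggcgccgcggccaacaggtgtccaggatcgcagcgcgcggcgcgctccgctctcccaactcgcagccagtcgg
Gjb6 promoter, minus strand, chr14:57133562-57133861: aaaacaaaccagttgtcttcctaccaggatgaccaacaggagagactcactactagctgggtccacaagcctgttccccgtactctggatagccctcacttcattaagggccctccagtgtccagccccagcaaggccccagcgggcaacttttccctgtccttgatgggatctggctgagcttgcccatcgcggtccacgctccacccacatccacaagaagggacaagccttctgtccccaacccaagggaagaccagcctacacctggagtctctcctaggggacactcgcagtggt

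The Gjb2 window held 2 GC boxes and had a GC content of 70%, whereas the Gjb6 window held 0 GC boxes and had a GC content of 57.3%. Of all 32851 RefSeq promoter windows of that length, 35.7% held a GC box, and their median GC content was 52.7%. TATAAA was found in neither window and in 13.6% of all windows. The windows of these neighbours were thus unlike in GC boxes and GC content.

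In the WT libraries, Gjb2 was at 101.2 FPKM in WT1, 166.5 in WT2, 241.3 in WT3 and 151.2 in WT4. In the KO libraries, it was at 135.1, 124.2, 136.1 and 186.4 FPKM in KO1 to KO4. The KO values all lay inside the WT range, which was set by WT1 and WT3. The WT mean was 165 ± 58 FPKM and the KO mean 145 ± 27.8 FPKM (SD, n = 4). The KO minus WT difference was -0.13 on the log2 scale (standard error 0.27, 95% confidence interval -0.76 to 0.49, limma adjusted p = 0.983), which spans 0.592-fold to 1.41-fold. An exact two-sided permutation test over the 8 libraries gave p = 0.714, where the smallest that 4 against 4 allow is 0.0286. Without WT1, the difference was -0.34 (95% confidence interval -0.84 to 0.15), and without WT1 and WT3 it was -0.14.

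Gjb6 followed Gjb2 closely. It was at 79.9 FPKM in WT1, 114 in WT2, 160 in WT3 and 114 in WT4, and at 90.5, 102, 110 and 130 FPKM in KO1 to KO4. As for Gjb2, every KO library fell between WT1 and WT3. For Gjb6, the WT mean was 117 ± 32.8 FPKM and the KO mean 108 ± 16.6 FPKM (SD, n = 4). Its difference was -0.08 on the log2 scale (standard error 0.23, 95% confidence interval -0.60 to 0.43, limma adjusted p = 0.983). The exact permutation p was 0.743. Without WT1, the difference of Gjb6 was -0.25 (95% confidence interval -0.67 to 0.16), and without WT1 and WT3 it was -0.09. Fewer cells that express a connexin and less of its RNA per cell cannot be told apart in bulk tissue, for this gene or the others.

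The ratio of Gjb6 to Gjb2 varied far less than either gene. It was between 0.663 and 0.82 in all 8 libraries, whereas Gjb2 varied 2.38-fold and Gjb6 2-fold. On the log2 scale, the ratio averaged -0.47 ± 0.12 over WT and -0.42 ± 0.15 over KO libraries (SD, n = 4), a difference smaller than the SD of either group. Over the 8 libraries, log2 values of Gjb2 and Gjb6 had a Pearson r of 0.96 and a Spearman rho of 0.95, given as a description. With WT1 and WT3 left out, r was 0.81 over the other 6. The points share their libraries, and with them the tissue content of each dissection. Of the other tested genes, 12 had a higher r with Gjb2 than Gjb6 had.

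The genes most like Gjb2 over the 8 libraries, by Pearson r of log2 values, were Pgm5 (0.979), S100b (0.979) and Tacr3 (0.974). S100b encodes a calcium-binding protein of glia, and Tacr3 encodes a neurokinin receptor. For Gjb6, they were Jam3 (0.996), Gldn (0.985) and Lrp2 (0.985). Jam3 encodes a junctional adhesion molecule, Gldn the Schwann cell protein gliomedin and Lrp2 the endocytic receptor megalin. These r values describe 8 libraries. WT1 was the lowest and WT3 the highest library in 14.2% of all tested genes, Gjb2 and Gjb6 among them.

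Gja1 (ENSMUSG00000050953) lies on the plus strand of chromosome 10, from 56377330 to 56402513. Its pattern was unlike that of the other members. Gja1 was at 24.2 FPKM in WT1, 27.1 in WT2, 24.1 in WT3 and 35.8 in WT4, and at 29.9, 32.8, 29.8 and 27.8 FPKM in KO1 to KO4. WT1 and WT3, which lay farthest apart in the other connexins, had nearly the same level, and the groups overlapped. The WT mean was 27.8 ± 5.49 FPKM and the KO mean 30.1 ± 2.07 FPKM (SD, n = 4). The difference was 0.13 on the log2 scale (standard error 0.15, 95% confidence interval -0.22 to 0.48, limma adjusted p = 0.97), so that the interval spans 0.858-fold to 1.4-fold, the narrowest of the 6. The exact permutation p was 0.371. Without WT1, the Gja1 difference was 0.07, and without WT1 and WT3 it was -0.05. In Pearson's r over the 8 libraries, Gja1 had -0.24 with Gjb2 and -0.14 with Gjb6. The genes most like it were Add2 (0.963), Axl (0.945) and Rbpj (0.936), which encode beta-adducin, a receptor tyrosine kinase and the DNA-binding partner of Notch.

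The connexins of myelinating glia spread most between libraries. Gjc3 (ENSMUSG00000056966), on the minus strand of chromosome 5 from 137953461 to 137963098, was at 5.59 FPKM in WT1, 16.3 in WT2, 25.9 in WT3 and 20.5 in WT4. It was at 14.1, 20.3, 15.1 and 21.1 FPKM in KO1 to KO4. WT1 stood below all other libraries, and WT3 was 4.63-fold above it. The WT mean was 17.1 ± 8.6 FPKM and the KO mean 17.6 ± 3.52 FPKM (SD, n = 4). The KO minus WT difference of Gjc3 was 0.23 on the log2 scale (standard error 0.43, 95% confidence interval -0.76 to 1.21, limma adjusted p = 0.983), and the exact permutation p was 0.857. Without WT1, it turned to -0.24 (95% confidence interval -0.71 to 0.23), and without WT1 and WT3 it was -0.07. Of the 50-base words in the Gjc3 transcripts, 1.44% occur in transcripts of other genes.

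Gjb1 (ENSMUSG00000047797), on the plus strand of chromosome X from 101376378 to 101385629, was at 2.95 FPKM in WT1, 7.05 in WT2, 14.3 in WT3 and 10.5 in WT4. In KO1 to KO4, it was at 6.61, 8.58, 10.2 and 7.03 FPKM. Again WT1 was lowest and WT3 highest, a 4.83-fold span. The WT mean was 8.69 ± 4.83 FPKM and the KO mean 8.1 ± 1.62 FPKM (SD, n = 4). The difference was 0.09 on the log2 scale (standard error 0.44, 95% confidence interval -0.90 to 1.08, limma adjusted p = 0.989), and the exact permutation p was 0.943. Without WT1, it turned to -0.35 (95% confidence interval -0.92 to 0.23), and without WT1 and WT3 it was -0.11. With all 8 libraries, the interval of Gjb1 spans 0.535-fold to 2.11-fold and that of Gjc3 0.591-fold to 2.32-fold, so that differences inside these bounds could not be resolved for either gene.

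Markers of peripheral myelin had their lowest and highest values in the same libraries as these genes. The summed FPKM of 10 Schwann cell and peripheral myelin genes was 455 in WT1, 1040 in WT2, 1520 in WT3 and 944 in WT4, and between 784 and 1030 in KO. WT1 was the lowest library for 7 of the 10 genes. Away from WT1 and WT3 the order differed, since the sum was higher in WT2 than in WT4 whereas Gjc3 and Gjb1 were lower there, and KO4, with the highest Gjc3 value of the KO libraries, had a sum of only 882 FPKM. Between Gjb1 and Gjc3, Pearson's r was 0.90 over the 8 libraries and 0.25 without WT1 and WT3. Against this sum, Gjc3 stood at 1.23% to 2.39% and Gjb1 at 0.649% to 1.11% of it, spans of 1.94-fold and 1.71-fold. Gjc3 was at 1.67% ± 0.39 of the sum in WT and 1.95% ± 0.319 in KO, and Gjb1 was at 0.845% ± 0.221 and 0.894% ± 0.143 (SD, n = 4). The KO and WT shares differed by less than the SD of the WT group for both genes. Neuronal markers had the same lowest and highest library, with 349 FPKM in WT1, 1160 in WT3 and 691 to 853 in KO. Marrow markers ran the other way, as given above. Summed oligodendrocyte markers were at 222 FPKM in WT2 and 411 in WT4, the same order as Gjc3 and Gjb1. In KO they were highest in KO1, at 281 FPKM, where both genes had their lowest KO values. The part of these cell contents in the connexin values was not tested.

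Gjb2 and Gjb6 were set beside markers of the stria vascularis, the secretory epithelium of the lateral wall. Its 8 genes summed to 168 FPKM in WT1, 350 in WT2, 525 in WT3 and 349 in WT4, and to between 223 and 336 in KO. Gjb2 made up 43.4% to 60.6% of that sum and Gjb6 30.5% to 47.6%. The share was 49.3% ± 7.54 in WT and 53% ± 6.34 in KO for Gjb2, and 35.9% ± 7.91 and 39.3% ± 1.25 for Gjb6 (SD, n = 4). These differences too were smaller than the SD in WT. For Gjb6, that SD rested on WT1, at 47.6% against 30.5% to 32.8% in WT2 to WT4. The KO libraries were at 37.9% to 40.6%, above WT2 to WT4 but below WT1. The summed markers were lower in KO, at 223 to 336 FPKM, than in WT2 to WT4, at 349 to 525 FPKM. Gjb6 itself was at 90.5 to 130 FPKM in KO and at 114 to 160 FPKM in WT2 to WT4. How often such shares separate for other genes was not computed. For Gjb2, WT2 to WT4 were at 43.4% to 47.6% and KO at 46.2% to 60.6%, which overlapped. The shares were not tested. The summed fibrocyte markers went from 1820 FPKM in WT1 to 2280 FPKM in WT3. Coch alone was at 1560 and 1930 FPKM there, so this sum mostly follows Coch. The list of sensory and supporting cells went from 80.8 to 145 FPKM.

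**Figure D2:**
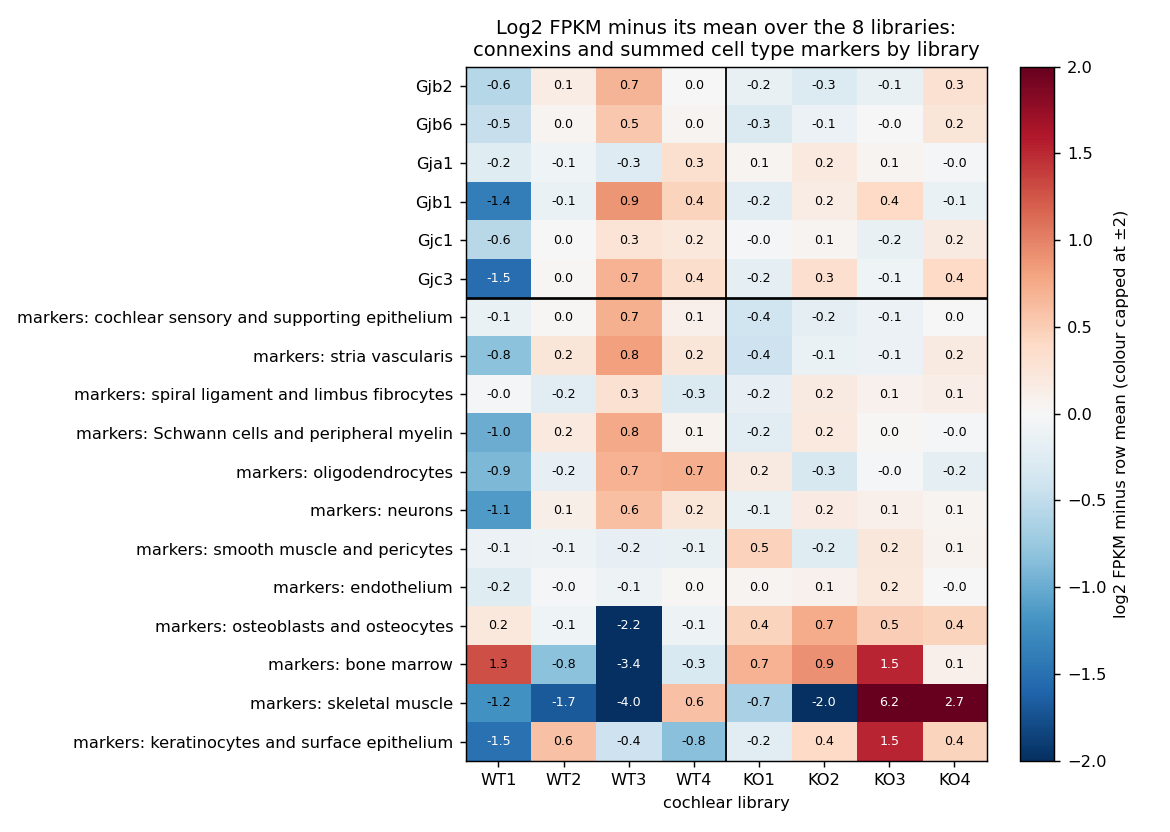
Log2 FPKM of each connexin (upper rows) and of the summed markers of 12 cell types (lower rows), minus the row's mean over the 8 libraries, with WT libraries left of the vertical line. The rows of Gjb1, Gjc3, peripheral myelin and neurons are lowest in WT1 and highest in WT3, the bone marrow row is lowest in WT3 (325 FPKM) and high in WT1 (8340 FPKM), and the Gja1 row, from 24.1 to 35.8 FPKM, is nearly flat.

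Gjc1 (ENSMUSG00000034520), on the minus strand of chromosome 11 from 102799579 to 102819700, was the lowest of the 6. It was at 1.89 FPKM in WT1, 2.78 in WT2, 3.34 in WT3 and 3.22 in WT4, and at 2.7, 2.89, 2.49 and 3.14 FPKM in KO1 to KO4. WT1 was below all others, and the KO libraries lay inside the WT range. For Gjc1, the WT mean was 2.81 ± 0.659 FPKM and the KO mean 2.81 ± 0.279 FPKM (SD, n = 4). The difference was 0.03 on the log2 scale (standard error 0.22, 95% confidence interval -0.48 to 0.53, limma adjusted p = 0.992), and the exact permutation p was 0.943. Without WT1, it was -0.15, and without WT1 and WT3 it was -0.10. The summed markers of smooth muscle and pericytes were at 91.1 FPKM in WT1 and 87.9 in WT3, and within this list Rgs5 went from 31.3 to 55.3 FPKM between these libraries and Acta2 from 28.4 to 11.9. Over the 8 libraries Gjc1 had a Pearson r of 0.97 with Gjc3 and of 0.86 without WT1 and WT3. Other pairs rested on those libraries, as r went from 0.83 to 0.02 between Gjb1 and Gjc1 and from 0.71 to -0.36 between Gjb2 and Gjb1. The genes most like Gjc1 were Wnt5a (0.986), Iffo1 (0.980) and 1700019D03Rik (0.980), and Wnt5a encodes a Wnt ligand. Those most like Gjc3 were Treh (0.995), Tmem65 (0.994) and Zfp871 (0.993), and those most like Gjb1 were Tigar (0.991), Rpp14 (0.990) and Trnp1 (0.985).

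As shares of the summed FPKM of the 6 genes, Gjb2 made up 48.3% ± 2.89 in WT and 46.4% ± 3.2 in KO, and Gjb6 made up 34.9% ± 1.46 and 34.6% ± 1.58 (SD, n = 4). Gja1 followed with 8.79% ± 2.78 and 9.81% ± 1.71, and Gjc3 with 4.77% ± 1.54 and 5.66% ± 0.918. Gjb1 and Gjc1 had 2.41% ± 0.835 and 0.845% ± 0.103 in WT, and 2.64% ± 0.649 and 0.905% ± 0.0904 in KO. With all 8 libraries, no share differed between the groups by more than the SD of the WT group. With replicates 1 to 3 only, the KO minus WT difference in share was -4.09 percentage points for Gjb2, 2.45 for Gja1, 1.34 for Gjc3 and 0.12 for Gjc1, each larger than the pooled SD over the 8 libraries (3.05, 2.31, 1.27 and 0.10). The sum itself was 216 FPKM in WT1, 334 in WT2, 469 in WT3 and 336 in WT4, and 279 to 375 in KO. The 6 genes held 97% to 98.9% of the FPKM of all listed connexin genes in every library.

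**Figure D3:**
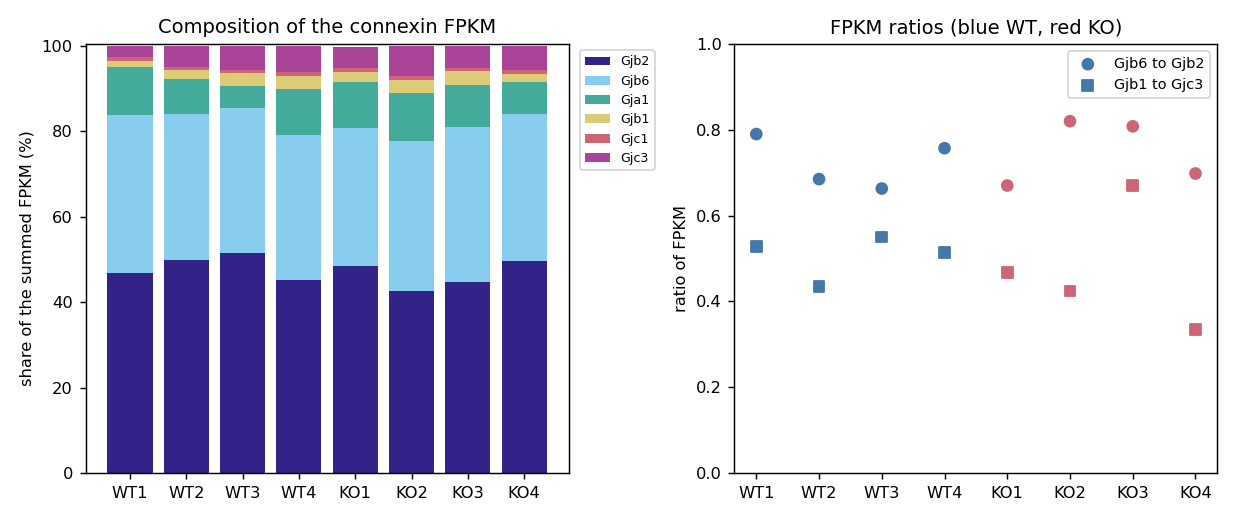
Left, share of each connexin in the summed FPKM of the 6 genes (%) in each library. Right, FPKM ratios of Gjb6 to Gjb2 (circles) and of Gjb1 to Gjc3 (squares) by library, WT in blue and KO in red. Gjb2 and Gjb6 make up most of every bar, the first ratio lies between 0.663 and 0.82, and the second between 0.334 and 0.671.

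Because the KO mice lack a microRNA, the 3′-UTRs of the connexin genes were searched for its seed match. The mature miR-29 sequences of RefSeq (GRCm38.p6) are shown for their shared seed, bases 2 to 8, in capitals. The locus of miR-29a-3p is on the minus strand of chromosome 6, from 31062673 to 31062694.

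miR-29a-3p: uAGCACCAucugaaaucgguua
miR-29b-3p: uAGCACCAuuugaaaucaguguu
miR-29c-3p: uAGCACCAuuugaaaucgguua
Gjc3 3′-UTR site, minus strand, chr5:137954133-137954139 for the capitals: tggcttttgtgaattTGGTGCTacattta

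The 7-base match TGGTGCT was present in the longest annotated 3′-UTR (GENCODE M21, GRCm38) of 1 of the 6 connexins, Gjc3, and of 15.5% of tested genes (2294 of 14832). In Gjc3, it lies at positions 2313 to 2319 of 2991 bases and is followed by A, which makes an 8-base match. Gjb2, Gjb6, Gja1, Gjb1 and Gjc1 had 0 matches in 3′-UTRs of 1469, 714, 1720, 610 and 406 bases. The KO minus WT difference of Gjc3 is the value of 0.23 given above, with an interval from -0.76 to 1.21. A match is a description of the sequence and not of binding.

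The other connexins and the pannexins, which form related channels, were listed as 17 genes. All 17 were in the table and 6 passed the filter. With 8 libraries, limma called 0 of these 6 at an unadjusted p-value under 0.05 and 0 after adjustment, where 5.12% of all tested genes were called. The median difference of the 6 was 0.21 on the log2 scale with all libraries and -0.22 without WT1. The highest were Panx2, Gjd2 and Panx1, with means of 6.19, 2.93 and 2.16 FPKM. Gjd2, which encodes the neuronal connexin Cx36, was at 0.605 FPKM in WT1 and at 2.34 to 4.32 in the other 7 libraries. WT1 was thus the lowest library in Gjd2, as in Gjb2, Gjb6, Gjb1, Gjc1 and Gjc3 and in 52.1% of all tested genes. Gje1 was listed at 0 in all libraries.

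Panx2 was at 4.34, 7.22, 9.62 and 8.36 FPKM in WT1 to WT4 and at 5.42, 6.27, 4.43 and 3.89 FPKM in KO1 to KO4. The groups overlapped through WT1. The difference was -0.52 on the log2 scale (limma adjusted p = 0.947), and without WT1 it was -0.75 with an unadjusted p of 0.00449 and a limma adjusted p of 0.146. Panx3, a pannexin of bone and cartilage, had a difference of 0.56 with all libraries and 0.67 without WT1 (limma unadjusted p = 0.0442, adjusted p = 0.245). Panx2 and Panx3 were the 2 of 6 genes called without WT1, where 12.1% of all tested genes were called as higher and 7.4% as lower in KO. Marker genes of osteoblasts and osteocytes summed to 106 to 546 FPKM in WT and to 640 to 785 in KO, and the part of bone in the Panx3 values was not tested.

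Partners of connexins in scaffolding, transport and turnover were listed as 11 genes, and all 11 were tested. Limma called 0 of them at an unadjusted p-value under 0.05 and 0 after adjustment, and their median difference was 0.08 on the log2 scale. It was -0.06 without WT1 and -0.02 with median-ratio scaling. The highest were Nedd4, Tjp1 and Csnk1d, with means of 85.1, 42.2 and 30.9 FPKM. Nedd4 encodes a ubiquitin ligase that acts on Cx43. Nedd4 was at 85.7, 91.6, 93.1 and 89 FPKM in WT1 to WT4 and at 81.3, 79.8, 80.2 and 80.2 FPKM in KO1 to KO4. All KO values lay below all WT values, and the groups did not overlap in 3.5% of all tested genes. The difference was -0.16 on the log2 scale (standard error 0.12, limma unadjusted p = 0.207, adjusted p = 0.947), and the exact permutation p was 0.0286, the smallest possible. Fitted with quantile normalization, Nedd4 had an unadjusted limma p-value of 0.0372 and an adjusted one of 0.817. Tjp1, which encodes the scaffold protein ZO-1, had a difference of -0.09. Csnk1d, a casein kinase gene, had a difference of 0.13. Dbn1, which encodes the actin-binding protein drebrin, was the 1 partner called without WT1, at -0.44 (limma unadjusted p = 0.0458, adjusted p = 0.248).

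**Figure D4:**
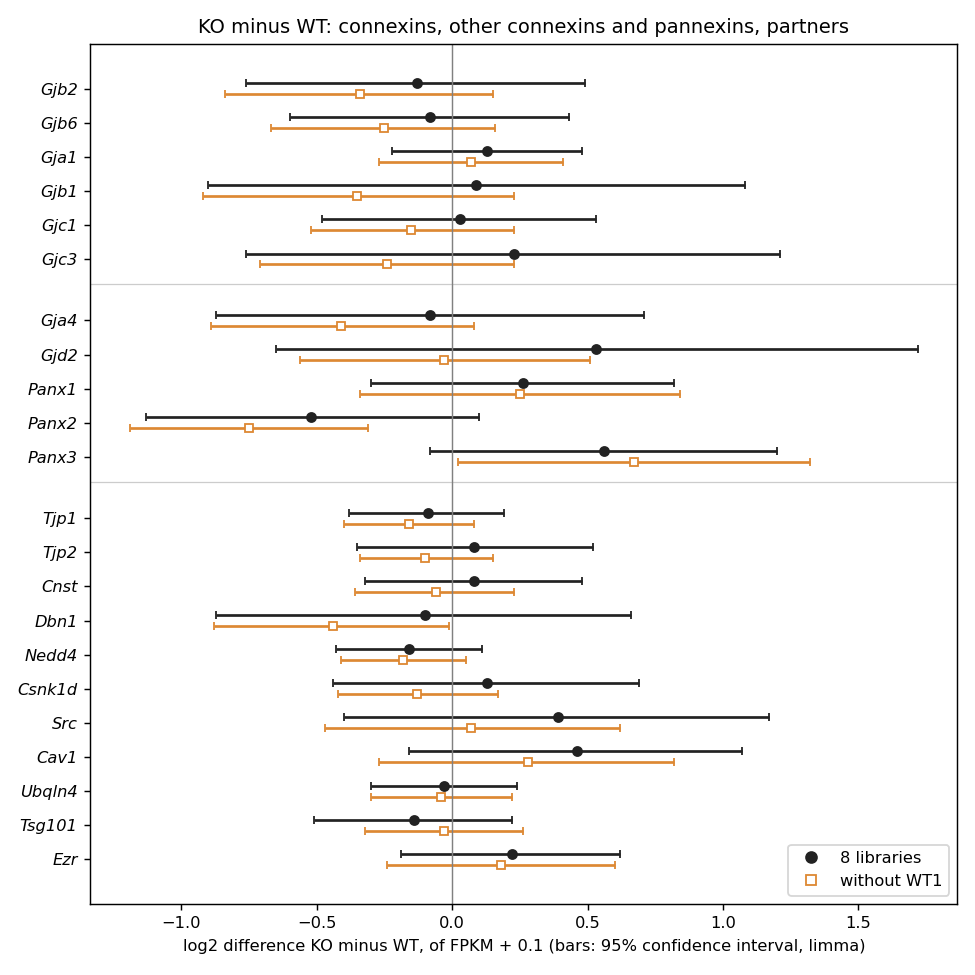
KO minus WT difference of log2(FPKM + 0.1) for the 6 connexins (top), 5 of the 6 tested other connexins and pannexins (middle) and the 11 partner genes (bottom), with 95% confidence intervals from limma, for 8 libraries (black circles) and without WT1 (orange squares). With 8 libraries every interval shown crosses 0, and without WT1 those of Panx2, Panx3 and Dbn1 do not.

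FPKM were not rescaled between libraries. Rescaling by the median of gene-wise ratios moved the median difference of all tested genes from 0.10 to 0.00 and changed the split of called genes from 691 higher and 76 lower to 402 higher and 363 lower. The differences of the connexins then ran from -0.23 (Gjb2) to 0.13 (Gjc3), and Gjb1 and Gjc1 turned to -0.01 and -0.07. On that scale limma still called 0 of the 6 connexins.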

How the data were processed

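Total RNA of cochleae was depleted of ribosomal RNA and made into strand-specific libraries. The authors mapped paired-end reads with Hisat2 (version 2.0.4) and deposited FPKM per gene and library; the tool and annotation behind the FPKM are not given in the sources used here. The submitters' processing notes name mm9, whereas 19771 of the 21760 gene identifiers found in GENCODE M21 have the coordinates of GRCm38, the 6 connexins among them. Of the symbols, 27 had become dates and were restored by gene identifier. Of the columns with values per library, 0 stayed unmapped. The authors' own test used read counts, which were not analysed here, so limma on FPKM took its place.

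Groups came from the sample titles. log2(FPKM + 0.1) was fitted with limma 3.58.1 (R 4.3.3), genotype as the only factor and a mean-variance trend, over genes averaging 0.5 FPKM or more. Differences are on that scale, which understates those of low genes. Adjusted p-values are Benjamini-Hochberg over all tested genes. Exact permutation tests used scipy 1.17.1. In simulated data with 200 of 14990 genes changed by 2 on the log2 scale, KO against WT with 4 libraries each, 185 were recovered at an unadjusted p-value under 0.05 and 142 after adjustment, and 5.21% of the unchanged ones were called without adjustment. Recovery at shifts as small as the connexin differences, -0.13 (Gjb2) to 0.23 (Gjc3), was not tested. Whether these rates hold for libraries as uneven as WT1 and WT3 was not tested. Named genes were the 6 connexins, the called genes and the 3 highest genes of each list of related genes, the 2 highest markers of each of 12 cell type lists, and the 3 genes most like each connexin; some of these are not reported here, and other genes named were chosen after their values were seen. The members and lists were chosen with earlier results of these data known. Alternatives were a pseudocount of 1, no filter, a filter at a mean of 1 FPKM, quantile normalization, scaling by the median of gene-wise ratios, no trend, the replicate number as a block, replicates 1 to 3 only, and leaving out each library. Leaving out WT1 and WT3 together was added after seeing the data.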

Additional observations from a re-analysis of the deposited data

Results flagged for a closer look

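A sample was marked where its gap to the nearest of its group was large against the range of the group (a gap above Dixon's 95% critical value), in FPKM, shares and ratios of the connexins, in the tested related genes and in the marker sums. This held in 6 of 88 groups of 4, and chance gives about 1 in 20. Of the connexin values, 1 was marked, the share of Gjb6 in the summed connexin FPKM, which was 37% in WT1 against 34.1% to 34.2% in the other WT libraries. The FPKM of the 6 connexins gave no such mark in either group. Among the partners, Csnk1d was at 17.1 FPKM in WT1 against 32.6 to 35.3 in the other WT libraries, Ezr, which encodes the membrane linker ezrin, was at 29.9 FPKM in WT2 against 20.8 to 21.8, and Cav1, which encodes caveolin, was at 13.9 FPKM in KO4 against 7.17 to 7.97 in the other KO libraries. Osteoblast and osteocyte markers summed to 785 FPKM in KO2 against 640 to 660 in the other KO libraries. Skeletal muscle markers summed to 229 FPKM in KO3 against 0.77 to 19.5.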

How the results depend on the processing

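Over 17 alternatives, 0 of 102 connexin differences had an unadjusted limma p-value under 0.05, and the smallest was 0.0946. The sign changed in 15, none of them called. With median-ratio scaling and quantile normalization, Gjb1 was at -0.01 and -0.04 and Gjc1 at -0.07 and -0.16. With WT1 and WT3 both left out, Gja1, Gjb1, Gjc1 and Gjc3 were at -0.05, -0.11, -0.10 and -0.07. Leaving out each library in turn gave -0.34 to 0.07 for Gjb2, -0.25 to 0.08 for Gjb6, 0.07 to 0.26 for Gja1, -0.35 to 0.40 for Gjb1, -0.15 to 0.12 for Gjc1 and -0.24 to 0.49 for Gjc3. The number of called genes was 347 (without KO3) to 2922 (without WT1), was 377 without KO2, and was 2430 without WT1 and WT3. Of the other connexins and pannexins, 0 to 2 were called when single libraries were left out, and 1 (Panx2, lower in KO) was called with median-ratio scaling, with quantile normalization and without WT1 and WT3. Of the partners, 0 to 1 were called when single libraries were left out and 1 (Nedd4) with quantile normalization. The causes were not tested. WT and KO libraries share replicate numbers. After subtracting group means, WT and KO libraries of one number correlated at 0.42, -0.24, -0.17 and 0.21 over genes. With no reference value for unpaired libraries, these correlations do not settle whether the numbers pair the libraries. A replicate block in the model gave 838 called genes (738 higher, 100 lower) and 0 called connexins. The differences in share and in the Gjb6 to Gjb2 ratio moved by less than 1 SD under their alternatives, but some then exceeded that SD. For Gjb2, the difference in share was -1.92 percentage points with all libraries, -3.01 without WT4 and -4.09 with replicates 1 to 3. The median of the other connexins and pannexins was 0.21 with all libraries, 0.06 with a pseudocount of 1, -0.14 without WT1 and WT3 and -0.22 without WT1. With no fragment counts, the precision from counting alone is unknown.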

Other observations

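Outside the connexins, the leading markers of the listed cell types varied as follows. Col1a1, which encodes the main bone collagen, was at 64.1 to 241 FPKM in WT and 282 to 424 in KO. Its difference was 1.28 on the log2 scale (limma unadjusted p = 0.0148, adjusted p = 0.947), and all KO values lay above all WT values. The osteoblast hormone gene Bglap, at 9.82 to 190 FPKM in WT, overlapped with its KO values of 81.1 to 110. Globin Hbb-bs ran from 259 to 4150 FPKM in WT and from 2490 to 6550 in KO, and the neutrophil gene S100a8 from 17.2 to 2820 and from 447 to 1730. Both were lowest in WT3. The muscle genes Acta1 and Tnnt3 were highest in KO3, at 142 and 34.3 FPKM.

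In the lateral wall, Slc12a2, which encodes an ion cotransporter, was at 59.7 to 203 FPKM in WT and 90.9 to 139 in KO, and the melanin synthesis gene Dct at 50.2 to 117 and 49.1 to 69.2. The difference of Dct was -0.52 on the log2 scale with 8 libraries (limma unadjusted p = 0.0728), -0.74 without WT1 (unadjusted p = 0.00419, adjusted p = 0.145) and -0.56 without WT1 and WT3 (unadjusted p = 0.0138, adjusted p = 0.212). Car3, a carbonic anhydrase gene among the fibrocyte markers, was at 162 to 211 FPKM in WT and 118 to 191 in KO. The matrix genes Epyc and Otog of the sensory region were at 34.7 to 75 and 6.56 to 24.2 FPKM in WT, and at 32.9 to 37.7 and 7.18 to 13.7 in KO. Tectb, which encodes a tectorial membrane protein, was the 1 marker of that region called at an unadjusted p-value under 0.05, with a difference of -1.19 (limma unadjusted p = 0.0101, adjusted p = 0.947).

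Among glia and neurons, Mobp of oligodendrocytes was at 23.6 to 104 FPKM in WT and 33.6 to 77.2 in KO. The neuronal genes Snap25 and Calb2 were at 121 to 357 and 90 to 292 FPKM in WT, and at 218 to 254 and 145 to 222 in KO. In each of these 3 genes WT1 was the lowest library. Of the vessel genes, Rgs5 was at 31.3 to 55.3 and 33.9 to 38.1 FPKM, Acta2 at 11.9 to 28.4 and 15 to 44.1, Cldn5 at 2.19 to 20 and 12.4 to 20.8, and Pecam1 at 8.39 to 15.1 and 10.8 to 15.6 in WT and KO. Des, an intermediate filament gene of muscle, had a difference of 1.36 (limma unadjusted p = 0.0252, adjusted p = 0.947). It was at 15.8 FPKM in KO3, where skeletal muscle markers summed to 229 FPKM, and at 3.36 to 4.72 in the other KO libraries. Without WT1, the unadjusted limma p-value of Des was 0.0536, and without WT1 and WT3 the difference was 0.95 with an unadjusted p-value of 0.143. The summed markers of oligodendrocytes were 133 to 411 FPKM in WT and 199 to 281 in KO, and those of endothelium 39.9 to 48.3 and 47.3 to 54.9. Keratinocyte markers summed to 0.694 to 2.91 FPKM in WT and 1.68 to 5.58 in KO, with Krt10 at up to 4.52 and Krt14 at up to 0.888 FPKM.

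Of the other connexin and pannexin genes, Gjd2 and Panx1 held 1 match each to the miR-29 seed in the longest 3′-UTR. Their KO minus WT differences were 0.53 and 0.26 on the log2 scale (limma adjusted p = 0.965 and 0.962). Leaving out WT1 gave -0.03 for Gjd2 and 0.25 for Panx1. Such a match was present in 15.5% of tested genes.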
